A study of Mus musculus with 31 samples.

Results

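The baseline transcript profile of D10.G4.1 cells, a single mouse clone of type 2 helper T (Th2) cells, was described from the 4 arrays of cells treated with phosphate-buffered saline (PBS) for 0.8 h. These were 4 of the 31 arrays of a study that set the neuropeptide neuromedin U (NmU) against PBS at 0.8, 3, 6 and 12 h, with total RNA of D10.G4.1 cells on every array. No effect of NmU is described here, and whether the cells were at rest was not tested. The 12 arrays of cells kept in PBS for 3, 6 and 12 h, with 4 at each time, served to ask which signals held later, and the 15 NmU arrays entered the shared estimate of spread, the signal limit and filter, and counts over all arrays or groups. The labels do not say whether arrays of a group came from separate cultures, so a p-value here sets a difference only against array-to-array spread, which may be technical, and precision is limited by how many arrays there were. A profile of 1 clone in culture is not that of Th2 cells in tissue.

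Th2 cells are CD4+ T cells that make the cytokines of the type 2 immune response, above all interleukin-4, interleukin-5 and interleukin-13, which drive antibody class switching to IgE, eosinophils and mucus. The factor GATA3, switched on by interleukin-4 through STAT6, opens the Th2 cytokine genes and keeps the interferon gamma gene of the type 1 programme low. Cytokine genes of a resting Th2 cell are poised, and their transcription is increased when the T cell receptor is engaged.

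The deposited value for a probe set, the group of probes for 1 transcript, is its intensity in arbitrary units, called signal below. All 12422 probe sets that were not array controls were ranked by mean signal over the 4 arrays. Those in the top 10%, 1242 probe sets at 495.5 or more, are called bright. The 2141 probe sets between the average signal of an array, 150.1, and that limit are called moderate, and 4184 below the average but at 20.2 or more are called dim. The other 4855, or 39.1%, had a mean under 20.2, the 40th percentile of all deposited values, and are called near the floor. A gene was given the class of its brightest probe set. Of 8251 genes measured, 1011 (12.3%) were bright, 1743 moderate, 2925 dim and 2572 (31.2%) near the floor, and the median gene had a signal of 63.0.

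Signal depends on how well the probes bind as well as on the transcript, so a rank orders signals and not numbers of molecules. A signal near the floor is likewise no proof that a transcript was absent. Among 29 genes named as ribosomal proteins, which every cell uses, 18 were bright and the median signal was 3996, but 7 lay near the floor. Rps14, for example, had signals of 13.1, 17.3, 12.6 and 15.0, and Rps20 had 4.1, 9.4, 11.2 and 11.7. Transcripts that are certain to be made can thus read at the bottom of the scale, and the genes described below as near the floor share that limit. A low signal in these bulk samples also does not tell fewer cells with a transcript from less RNA per cell.

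**Figure D1:**
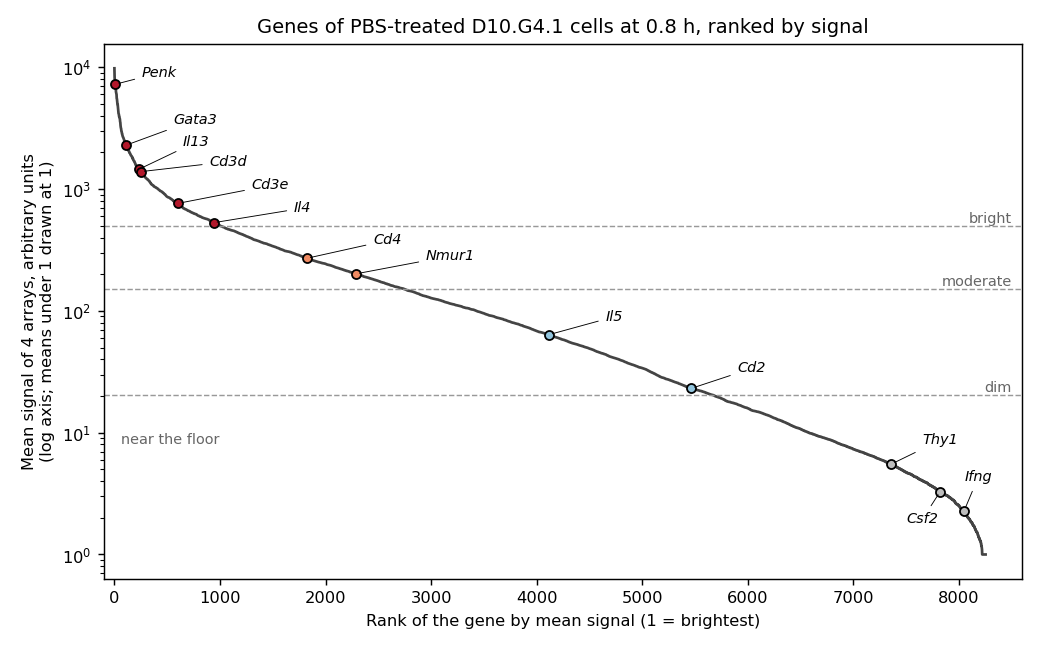
Mean signal over the 4 PBS 0.8 h arrays (log axis, arbitrary units) against the rank of each of 8251 genes, with dashed lines at the limits of the bright, moderate and dim classes, 495.5, 150.1 and 20.2. Penk, Gata3, Il13, Cd3d, Cd3e and Il4 sit in the bright class, Cd4 and Nmur1 in the moderate class, Il5 and Cd2 in the dim class, and Thy1, Csf2 and Ifng near the floor.

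The 4 arrays ranked the probe sets alike. Their log2 signals correlated at between 0.977 and 0.982 for the 6 pairs, over probe sets and not over independent replicates. The median signal was 37.15, 41.85, 40.05 and 39.0 on replicates 1 to 4, and 41.1%, 37.2%, 39.0% and 39.3% of probe sets lay under 20.2. Replicate 1 had the lowest median and the lowest maximum, and many bright genes below were lowest there. The spread between arrays was small for bright probe sets, with a median coefficient of variation of 9.31%, and large near the floor, at 41.6%. Of the 4855 probe sets near the floor, 4017 were under 20.2 on each of the 4 arrays. Genes just below that limit were Polr3d, Inmt and Tcap, with means of 20.125, 20.15 and 20.175, and just above it Esyt3, Cd1d1 and Cacna1s, each with a mean of 20.225. At the limit of the bright class the gaps were as narrow. Rrs1, Bpnt2 and Api5 were just below it, with means of 494.6, 494.9 and 494.95, and Fcf1, Paxbp1 and Thumpd3 just above it, at 495.5, 495.55 and 495.75. Hsd17b10, Atg12 and Rfc4 stood just below the average array signal, at 149.9, 149.9 and 150.1, and Epb41l4aos, Arhgap39 and Vps26c just above it, at 150.15, 150.2 and 150.2. A gene within a few units of a limit is not distinguished from its neighbours by its class.

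The brightest genes were mostly those of protein synthesis and of major histocompatibility complex (MHC) class I. Rpl41, a ribosomal protein, ranked first with signals of 8193.8, 11342.8, 9319.4 and 10339.0. Of the 25 brightest genes, the other ribosomal proteins were Rps24, Rps4x, Rplp0, Rps28, Rps18, Rpl7, Rpl19, Rps10, Rps3a1, Rpl8, Rps3 and Rpl7a, with means between 5483 and 8196. The translation elongation factor Eef1a1 came second at 8359 ± 896 (SD, n = 4, as for every mean here), and Ldha, which makes lactate at the end of glycolysis, had 7428 ± 777. The class I heavy chains H2-K1 and H2-D1 had 7676 ± 764 and 6739 ± 630, and their light chain B2m had 6795 ± 680. Other probe sets read 2065 and 47.7 for H2-K1, and 6538 and 3235 for H2-D1. The level of H2-K1 thus rests on which probe set is read. Whether these probe sets also read other class I genes was not tested. Signal was concentrated in few probe sets: the top 1%, 124 probe sets, held 23.8% of the summed signal of the 12422, and the bright class held 66.6%.

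The other 7 of these 25 genes belong neither to this machinery of translation and glycolysis nor to class I. Lgals1, galectin-1, a secreted lectin that binds sugars on T cell surfaces, had 6776.9, 8885.9, 7688.0 and 8434.3. Plac8, a small cysteine-rich protein of leukocytes and placenta, had 6250.7, 8188.6, 7509.5 and 7780.8. Penk, the precursor of the enkephalin opioid peptides, had 6185.4, 8174.7, 6661.3 and 7978.9, which ranked it 14 of 12422. Replicate 1 was the lowest array for each of the 3, and replicate 2 the highest. The 3 probe sets for Penk differed widely, with means of 7250.1, 672 and 3.4, so that its level rests on which probe set is read. Car2, carbonic anhydrase 2, had 5502 ± 865, and Ran, the GTPase of nuclear transport, had 6463 ± 508. Tpt1, a protein of growth and survival, had 6277 ± 640, and Ybx1, which binds messenger RNA, had 6235 ± 642.

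The 4 genes taken as markers of the clone were all above the average array signal. Cd3e, a signalling chain of the T cell receptor complex, had signals of 500.9, 1043.6, 634.3 and 876.5. Its arrays differed by more, relative to their mean of 764 ± 243, than those of the other markers, and all 4 were above the limit of the bright class. Cd4, the coreceptor for MHC class II, had 256.3, 284.9, 255.5 and 283.6, a moderate signal with little spread. Il4, the cytokine that induces the Th2 state, had 470.3, 528.9, 540.1 and 577.1, and Il13, which acts on epithelium and macrophages, had 1078.8, 1629.0, 1597.6 and 1529.6. Il13 was bright on each array, and Il4 was bright on 3, with replicate 1 below the limit. All 4 markers were thus read in these cells, but Cd3e and Cd4 belong to CD4+ T cells at large. Only Il4 and Il13 bear on the Th2 label. Of 8 Th2 cytokines described below, which include both, 4 were bright, 3 dim and 1 near the floor.

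The T cell surface was read unevenly. Of 14 genes in the list, 5 were bright, 1 moderate, 4 dim and 4 near the floor, with a median signal of 68.2 against 63.0 for all genes. The bright ones were Cd3d, Cd3g and Cd3e of the receptor complex, the costimulatory receptor Cd28 and the leukocyte phosphatase Ptprc (CD45). Cd3d had 1303.8, 1322.7, 1603.6 and 1327.1, with replicate 3 above the other arrays, and Cd3g had 1149.8, 1137.2, 1020.9 and 1240.4. Cd28 had 872.1, 1125.6, 1028.7 and 880.1. Cd247, the zeta chain that carries most of the signalling motifs, was dim at 104 ± 19.2, below all 3 Cd3 chains in signal.

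Several surface genes by which T cells are usually recognised were dim or near the floor. Cd2, an adhesion receptor, had 14.7, 31.9, 18.4 and 27.4, on both sides of the 20.2 limit. Cd6 had a mean of 24.4 ± 2.29 and Cd27, a receptor of the tumour necrosis factor family, 32.6 ± 5.04. Thy1, the pan-T cell antigen of the mouse, had 7.8, 5.7, 2.8 and 5.8, and Cd5, which dampens receptor signals, had 6.2, 9.2, 9.8 and 5.2. Both were under 20.2 on 30 of the 31 arrays of the series, and the highest signal on any other array was 22.1 for Thy1 and 20.9 for Cd5. Cd8a and Cd8b1, the coreceptor chains of cytotoxic T cells, had means of 4.28 ± 1.68 and 3.75 ± 2.28 and were under 20.2 on all 31 arrays.

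Among genes that carry the receptor signal inward, 19 of the 22 listed were measured, and 2 were bright, 6 moderate, 9 dim and 2 near the floor, with a median of 112. Zap70, the kinase recruited to the receptor chains, had 1897.0, 1785.1, 1692.1 and 2129.2. It was by far the brightest of them, and its other 2 probe sets read 1069 and 29.2. Ptpn22, a phosphatase that restrains receptor signalling, had 583 ± 44.3. The adaptors and exchange factors Vav1 and Lcp2 (SLP-76) were moderate, at 347 ± 7.58 and 287 ± 48.0, and the adaptor Lat and the kinase Fyn were dim, at 102 ± 9.74 and 110.1 ± 24.9. Sh2d1a, the adaptor SAP, which helper T cells need for help to B cells, had 1.1, 1.5, 2.5 and 3.0, under 20.2 on all 31 arrays. The receptor-proximal kinase Lck was not analysed here.

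**Figure D2:**
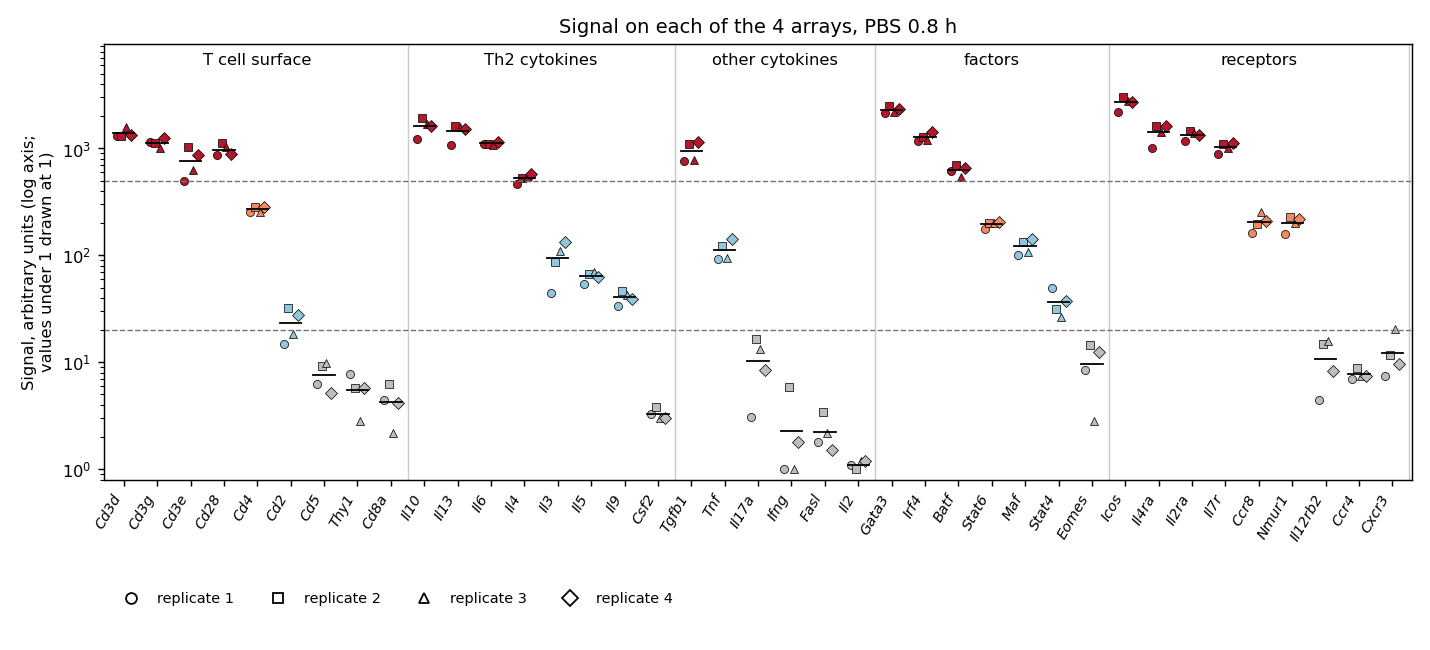
Signal of selected T cell surface, cytokine, transcription factor and receptor genes (log axis, arbitrary units) on each of the 4 PBS 0.8 h arrays, with a symbol for each replicate, a bar at the mean and dashed lines at 495.5 and 20.2. Cd3d, Il10, Il13, Il6, Gata3, Irf4, Icos and Il2ra lie above the upper line on each array, and Thy1, Csf2, Ifng, Il2 and Ccr4 below the lower line on each array.

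Of 8 cytokines made by Th2 cells, 4 were bright, 3 dim and 1 near the floor, with a median of 311. Il10, which restrains inflammation, was the brightest of the 8 with 1224.2, 1910.6, 1685.0 and 1629.2. Il13, at 1459 ± 257, and Il6, a cytokine of inflammation and B cell help, with 1111.9, 1107.3, 1080.2 and 1155.7, were above Il4 at 529 ± 44.3. Il6 varied least between arrays. The other Th2 cytokines were far lower in signal. Il3, a growth factor for mast cells and basophils, had 44.7, 87.0, 110.8 and 132.7, and Il5, the eosinophil growth factor, had 54.5, 67.3, 70.6 and 62.6. Il9, a mast cell growth factor, had 33.7, 46.2, 42.7 and 39.1. Csf2, which encodes GM-CSF, lay at 3.3, 3.8, 3.0 and 3.0, and on none of the 31 arrays did it exceed 10.7. The class of Il4 rested on 1 of its 4 probe sets: the others had means of 153, 94.0 and 23.2.

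Cytokines of other T cells were lower. Of 18 listed, 12 were measured, with 1 bright, 5 dim and 6 near the floor and a median of 30.7. Tgfb1, which restrains T cells and guides the regulatory and Th17 fates, was the bright one with 765.0, 1107.0, 787.2 and 1158.2, and Tnf was dim at 91.7, 122.6, 95.1 and 142.4. Il2, the T cell growth factor, had 1.1, 0.9, 1.2 and 1.2, and Ifng, the defining cytokine of Th1 cells, had 0.5, 5.9, 0.9 and 1.8. Il17a, that of Th17 cells, had 3.1, 16.4, 13.2 and 8.5, and Fasl, the ligand of the death receptor Fas, had 1.8, 3.4, 2.2 and 1.5. These 4 genes were under 20.2 on all 31 arrays. Ltb, lymphotoxin beta, and Mif, whose transcript is common in many cell types, were also near the floor, at 12.7 ± 7.44 and 10.5 ± 5.83.

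The 250 bases before the start of 5 of these genes are shown because they set the 2 bright Th2 cytokines among the markers, Il4 and Il13, beside 2 near-floor cytokines of other T cells and beside Gata3, the factor of the Th2 programme. They were taken from RefSeq (mouse build GRCm38.p6), each 5′ to 3′ on the strand of its gene. Il4 spans chr11:53618666-53618915 on the minus strand (the more upstream of 2 listed starts), Il13 chr11:53634703-53634952 on the minus strand, Il2 chr3:37125955-37126204 on the minus strand, Ifng chr10:118440796-118441045 on the plus strand and Gata3 chr2:9878601-9878850 on the minus strand. Capitals mark TATAAA and GGAAA on either strand, so that TTTATA and TTTCC are their reverse complements.
Il4: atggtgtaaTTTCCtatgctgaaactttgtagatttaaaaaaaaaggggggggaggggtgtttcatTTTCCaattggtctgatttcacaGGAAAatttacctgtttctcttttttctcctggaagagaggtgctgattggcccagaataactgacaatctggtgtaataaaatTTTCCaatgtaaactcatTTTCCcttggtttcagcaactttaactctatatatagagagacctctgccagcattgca
Il13: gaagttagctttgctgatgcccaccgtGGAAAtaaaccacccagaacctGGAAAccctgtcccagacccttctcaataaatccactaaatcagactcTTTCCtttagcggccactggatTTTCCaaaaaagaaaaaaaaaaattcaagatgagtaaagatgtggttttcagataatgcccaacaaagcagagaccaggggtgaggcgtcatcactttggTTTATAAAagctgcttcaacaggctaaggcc
Il2: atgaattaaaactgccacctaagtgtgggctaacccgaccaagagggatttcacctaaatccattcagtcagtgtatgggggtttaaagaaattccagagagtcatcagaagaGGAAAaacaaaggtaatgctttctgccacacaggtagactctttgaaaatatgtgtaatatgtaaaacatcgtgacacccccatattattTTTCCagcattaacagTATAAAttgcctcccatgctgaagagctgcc
Ifng: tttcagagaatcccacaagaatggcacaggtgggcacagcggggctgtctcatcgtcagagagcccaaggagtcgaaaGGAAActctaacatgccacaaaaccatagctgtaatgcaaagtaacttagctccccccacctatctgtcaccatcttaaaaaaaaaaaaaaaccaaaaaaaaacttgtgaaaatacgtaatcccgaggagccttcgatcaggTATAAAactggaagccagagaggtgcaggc
Gata3: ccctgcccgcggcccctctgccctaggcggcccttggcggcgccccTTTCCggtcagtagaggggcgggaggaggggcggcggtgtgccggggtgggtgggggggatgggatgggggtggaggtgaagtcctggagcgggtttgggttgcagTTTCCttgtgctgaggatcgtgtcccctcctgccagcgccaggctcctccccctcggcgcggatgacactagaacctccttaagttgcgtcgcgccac

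TATAAA is the core of the TATA box and GGAAA the core bound by NFAT factors, which the T cell receptor activates. The Il4 window held 5 matches to GGAAA and 0 to TATAAA. Il13 held 4 matches to GGAAA and 2 to TATAAA that overlap each other on opposite strands, the closest 29 bases before the start. Il2 held 2 and 1, with TATAAA 31 bases before the start, and Ifng 1 and 1, with TATAAA 30 bases before it. The Gata3 window was rich in G and C, 70.0% against 37.6% in Il4, and held 2 matches to GGAAA and 0 to TATAAA. Over all 32851 promoters of the table, 12.4% of windows of this length held TATAAA and 55.6% held GGAAA. The matches describe letters only. The 2 bright and the 2 near-floor cytokine genes all held GGAAA, and all but Il4 held TATAAA. Only exact matches were counted, so variants such as the tatatata in the Il4 window were not.

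Most transcription factors of the Th2 programme read above the average array signal. General T cell factors, described below, had a similar median of 289, so this trait is not particular to the Th2 list. Of 13 listed, 12 were measured: 4 were bright, 6 moderate, 2 dim and 0 near the floor, with a median of 276 against 63.0 for all genes. Gata3 had 2126.0, 2494.5, 2204.2 and 2336.0 and ranked 183 of 12422 probe sets. Irf4, needed with Gata3 for Th2 cytokine expression, had 1170.1, 1282.7, 1203.7 and 1416.8. Nfil3 had a mean of 766 ± 57.2, and Batf, the partner of Irf4 on DNA, 627 ± 64.4. Stat6, which carries the interleukin-4 signal, was moderate with 175.9, 199.4, 199.7 and 203.9, and Stat5a had 347 ± 9.26. The 2 dim ones were Maf, an activator of Il4, with 100.8, 134.4, 107.4 and 142.7, and Stat5b at 63.1 ± 5.17.

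Factors of other helper subsets were lower in signal. Of 15 listed, 10 were measured, with 0 bright, 2 moderate, 6 dim and 2 near the floor, and a median of 26.8. Irf1, which interferons induce and the Th1 fate uses, had 470.0, 487.7, 508.3 and 502.4, at the edge of the bright class, and Stat3, used by the Th17 and follicular helper fates, had 362 ± 50.3. Stat4, the signal transducer of interleukin-12 in Th1 cells, was dim with 49.7, 31.5, 26.3 and 37.8. Bcl6, the factor of follicular helper T cells, had 18.6, 33.6, 10.4 and 26.1, and Rora, a Th17 factor, 10.9, 18.2, 27.7 and 26.4. Both straddled the 20.2 limit. Ahr, a receptor for dietary and environmental ligands that Th17 cells use, and Eomes, a T-box factor of cytotoxic cells, were near the floor at 13.95 ± 3.53 and 9.62 ± 5.21. Tbx21 and Foxp3, the defining factors of Th1 and regulatory T cells, were not analysed here.

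Of 25 general T cell factors, 19 were measured, with 6 bright, 5 moderate, 5 dim and 3 near the floor, and a median of 289. Id2, an inhibitor of E proteins that effector T cells express, had 2049.8, 2045.8, 2173.0 and 2066.7, and Cbfb, the partner of RUNX factors, had 2042.1, 2041.4, 2007.7 and 2094.1. Both had a very narrow spread. The chromatin organiser Satb1, which folds the Th2 cytokine locus, was wider at 1084.3, 1646.7, 1416.8 and 1855.3. Rela, the transactivating subunit of NF-kB, had 1080.2 ± 115, Myb, a factor of dividing blood progenitors, 788 ± 89.7, and Foxp1, which holds T cells quiescent, 517 ± 60.2. Klf2, which maintains quiescence and recirculation of naive T cells, had 4.4, 6.3, 4.9 and 4.4, and Rel, a further NF-kB subunit, had 8.8, 6.7, 4.9 and 2.6. Klf2 and Rel were under 20.2 on all 31 arrays, and Ikzf2 was under it on 29.

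**Figure D3:**
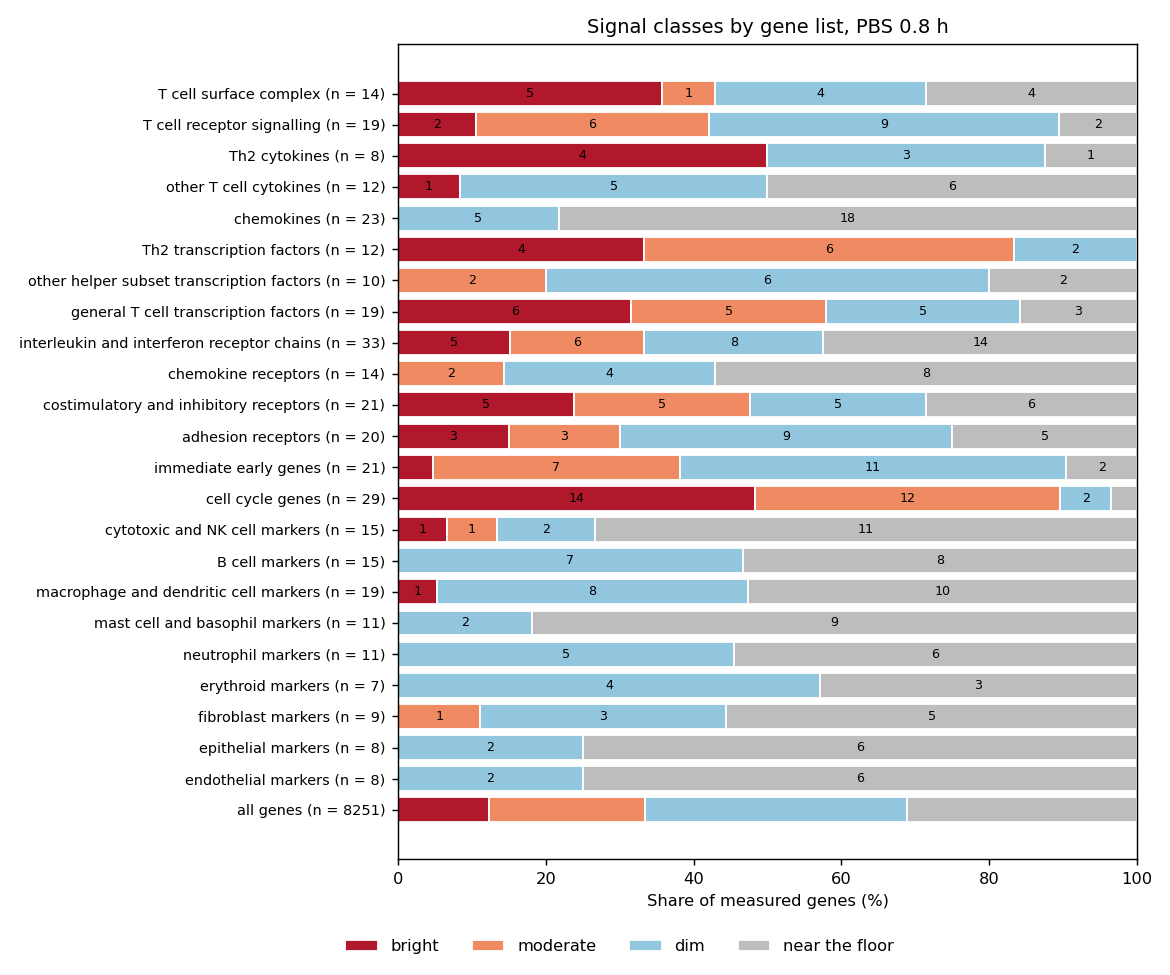
Share of the measured genes of each list (%) that were bright, moderate, dim or near the floor in PBS 0.8 h, with counts in the bars and all 8251 genes in the bottom row. The bars show 4 of 8 Th2 cytokines and 14 of 29 cell cycle genes as bright, and 18 of 23 chemokines and 9 of 11 mast cell and basophil markers as near the floor.

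Receptor chains for interleukins and interferons split widely. Of 38 listed, 33 were measured, with 5 bright, 6 moderate, 8 dim and 14 near the floor, and a median of 34.2. Il4ra, the chain shared by the receptors for interleukin-4 and interleukin-13, had 1017.3, 1617.9, 1427.7 and 1635.1. Il2ra, the high-affinity chain for interleukin-2 (CD25), had 1185.4, 1448.8, 1383.2 and 1323.1, and Il7r, which receives the survival signal interleukin-7, had 896.8, 1109.4, 1009.2 and 1122.0. All 3 were bright on every array, with replicate 1 the lowest. Il27ra was bright at 643 ± 38.9, and Il2rb, the signalling chain for interleukin-2 and interleukin-15, was moderate at 214 ± 14.3.

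Both receptors for interleukin-1, a cytokine to which this clone is known to respond, were well above the average. Il1r1, the signalling receptor, had 322.9, 375.8, 420.1 and 484.2. Il1r2, a decoy that binds interleukin-1 without signalling, had 723.3, 909.0, 857.4 and 929.2, and a second probe set for it read 723. The shared chain Il1rap, which Il1r1 needs for its signal, had 2.2, 8.5, 1.6 and 14.2 and was under 20.2 on all 31 arrays. The 2 receptors and their partner were thus in different classes of signal.

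Chains for the Th1 cytokine interleukin-12 also differed from each other. Il12rb1, which the interleukin-23 receptor shares, was moderate with 291.8, 314.2, 320.1 and 327.6. Il12rb2, specific for interleukin-12 and lost from Th2 cells, had 4.4, 14.7, 15.9 and 8.3. Il18r1, whose ligand acts with interleukin-12, had a mean of 9.32 ± 8.09. Near the floor as well were Il5ra at 1.25 ± 1.42, Tgfbr2, the ligand-binding chain for TGF-beta, at 1.98 ± 0.854, Il13ra1 at 6.88 ± 2.72 and Il9r at 9.30 ± 4.67. The interferon gamma receptor chains were dim, with Ifngr2 at 102 ± 15.5 and Ifngr1 at 27.6 ± 9.51.

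Chemokine receptors, which guide T cells into tissue, held no bright gene. Of 18 listed, 14 were measured, with 2 moderate, 4 dim and 8 near the floor, and a median of 15.2. Ccr8, a receptor typical of Th2 cells, had 160.5, 198.0, 253.5 and 209.7, and Ccr1 had 221.1, 174.1, 219.4 and 178.9. The 2 were alike in signal, and their arrays overlapped. Ccr4, also a receptor of Th2 cells, had 7.0, 8.9, 7.5 and 7.5, and Ccr3, found on eosinophils and some Th2 cells, had 8.7, 8.5, 3.3 and 11.3. Both were under 20.2 on all 31 arrays. The Th1 receptor Cxcr3 had 7.5, 11.6, 20.6 and 9.6, and the widely expressed Cxcr4 was dim at 68.1 ± 11.6.

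Chemokines themselves were near the floor in 18 of 23 measured genes (27 listed), and the other 5 were dim. Ccl5, an attractant of T cells and eosinophils, had 105.7, 75.0, 66.8 and 98.9, and Ccl1, the ligand of Ccr8, had 73.2, 88.6, 44.1 and 76.2. Ccl22, a ligand of Ccr4, had 64.0 ± 10.8, and Ccl7, an attractant of monocytes, 70.3 ± 22.2. Ccl2, a further monocyte attractant, lay at 1.7, 4.4, 3.6 and 2.6. Of the 23, 8 were under 20.2 on all 31 arrays, and 10 of the 18 near-floor genes reached it on at least 1 array outside this group.

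Costimulatory and inhibitory receptors included some of the brightest surface genes. Of 28 listed, 21 were measured, with 5 bright, 5 moderate, 5 dim and 6 near the floor, and a median of 113. Icos, a costimulatory receptor of effector T cells, had 2197.8, 3056.8, 2807.9 and 2716.9 and ranked 144 of 12422. Cd53, a tetraspanin of leukocytes, had 1952.4, 2411.0, 2427.9 and 2550.3, and Lag3, an inhibitory receptor that binds MHC class II, had 673.1, 750.5, 652.4 and 854.6. Ctla4, the inhibitory competitor of Cd28, was moderate with 140.2, 182.7, 242.2 and 220.7. Another inhibitory receptor of the same family, Pdcd1 (PD-1), had 3.7, 6.5, 3.4 and 3.7. The death receptor Fas had 1.6, 0.8, 1.1 and 1.8, and Pdcd1 and Fas were under 20.2 on all 31 arrays. Cd40lg, the signal of helper T cells to B cells, was dim at 30.5 ± 14.4, and Tnfrsf4 (OX40) at 40.8 ± 3.87.

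Of 22 adhesion receptors, 20 were measured, with 3 bright, 3 moderate, 9 dim and 5 near the floor, and a median of 31.1. Itgb7, the beta chain of the gut-homing integrin, had 1731.7, 1811.2, 1566.1 and 1882.6. Its partner chain Itga4 was dim, at 21.8, 23.7, 23.6 and 22.4, and Itgae, the other partner, was near the floor at 7.48 ± 3.54. Selplg (PSGL-1), the ligand of selectins on T cells, had 1174 ± 79.3. The integrin chains Itgal and Itgb2, which form LFA-1, were moderate at 303 ± 25.2 and 253 ± 41.2, and Cd44, a receptor for hyaluronan that marks memory T cells, was dim at 80.1 ± 7.11.

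Nmur1, the G protein-coupled receptor through which NmU acts on immune cells, was moderate. It had 157.6, 228.0, 199.8 and 219.7, a mean of 201 ± 31.4 and rank 2788 of 12422. Replicate 1 was the lowest of the 4. Nmu, the ligand, had 4.3, 6.8, 10.4 and 6.2 and was under 20.2 on 29 of the 31 arrays. Nmur2, the second receptor, was not analysed here.

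Cell cycle genes stood high. Of 31 listed, 29 were measured, with 14 bright, 12 moderate, 2 dim and 1 near the floor, and a median of 414. Pcna, the sliding clamp of DNA replication, had 2494.4, 2463.4, 2563.8 and 2526.0, and Mcm3, of the replicative helicase, had 1375.1, 1147.5, 1109.9 and 1097.1. Mki67, a nuclear protein of dividing cells, had 500.7, 341.4, 330.4 and 484.8, and Top2a, which untangles DNA, had 382 ± 58.8. Mcm6, another helicase subunit, had 2.5, 10.2, 3.4 and 19.6 and was under 20.2 on all 31 arrays, unlike Mcm2, Mcm3, Mcm4, Mcm5 and Mcm7, whose means lay between 778 and 1182. Of the D-type cyclins, Ccnd2 and Ccnd3 were bright at 512 ± 141 and 519 ± 53.8, and Ccnd1, the form that T cells use least, was dim at 28.3 ± 9.30.

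Genes induced within minutes of stimulation were mostly below the bright class. Of 24 immediate early genes, 21 were measured, with 1 bright, 7 moderate, 11 dim and 2 near the floor, and a median of 129. Jund, an AP-1 subunit that is made constitutively, was the bright one with 2541.1, 2517.9, 2322.2 and 2609.3. Egr1, which the T cell receptor induces through ERK, had 103.5, 165.0, 184.3 and 150.4, and Fos, its classical companion, had 34.8, 25.9, 25.1 and 35.8. Jun lay at 3.4, 3.6, 3.8 and 4.9 and was under 20.2 on all 31 arrays. Dusp1, a phosphatase that ends MAP kinase signals, had 123 ± 15.6.

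Markers of other cell types were read to see what else the samples held. Over all genes, 31.2% were near the floor. Of 15 measured B cell markers, 0 were bright or moderate, 7 dim and 8 near the floor, and their signals summed to between 289 and 398 per array. Cd79a, of the B cell receptor, had 58.5, 60.7, 65.7 and 61.6, while Cr2 had a mean of 2.78 and Cd22 one of 6.38. Of 11 mast cell and basophil markers, 9 were near the floor, among them Kit at 4.60 and Fcer1a at 5.52, and the sum was between 120 and 201. The other 2, Tpsb2 and Cpa3, were dim at 46.0 and 26.9. Of 11 neutrophil markers, 6 were near the floor and the sum was between 299.6 and 405. The highest of them, Csf3r, was dim at 116, and the highest erythroid marker, Epor, was dim at 102. Fibroblast markers had 5 of 9 near the floor and summed to between 514.5 and 629, and erythroid markers had 3 of 7 with a sum between 206 and 269.9. Epithelial markers had 6 of 8, with a sum between 179 and 205.5, and endothelial markers 6 of 8, with a sum between 154 and 203.5. The lowest of the epithelial, endothelial and fibroblast lists were Epcam at 1.80, Cdh5 at 2.60 and Postn at 2.20. The epithelial marker Cdh1 was dim at 125 and the endothelial markers Eng and Pecam1 were dim at 69.5 and 61.2, each under 20.2 on 0 of the 31 arrays. Col1a2, a collagen chain, was moderate at 416 ± 51.8 by 1 probe set and 4.1 by the other.

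Of 19 macrophage and dendritic cell markers, 1 was bright, 8 dim and 10 near the floor, and the sum per array was between 1404 and 2058. The bright one was Ctss, the protease cathepsin S, with 1076.3, 1586.9, 1473.6 and 1451.7, which is also made by other leukocytes. Cd14, Itgax and Cd68 were dim, at 87.8, 87.5 and 35.4, and were under 20.2 on 0 of the 31 arrays. Lyz2 at 2.70, Itgam at 3.10, Marco at 1.72 and Adgre1 at 5.48 were under it on all 31. The part of other cells in these signals was not tested. Of 16 antigen presentation genes, all measured, 5 were bright, 6 dim and 5 near the floor. MHC class II genes, which mouse T cells as a rule do not make, were low beside the bright class I genes. H2-Aa had 3.6, 4.9, 5.6 and 5.8, H2-Ab1 had 5.6, 7.9, 10.2 and 6.2, and H2-Ea was near the floor at 5.4. Not all were near the floor: H2-DMa, H2-DMb1 and H2-Eb1 were dim at 86.2 ± 6.27, 69.7 ± 5.70 and 38.95 ± 23.2. The class II chaperone Cd74 was dim at 59.0 ± 10.4. The peptide transporters of class I, Tap1 and Tap2, were bright at 913 ± 113 and 572 ± 41.0.

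Among cytotoxic and natural killer cell genes, 15 of 19 were measured, with 1 bright, 1 moderate, 2 dim and 11 near the floor. Gzmb, the protease granzyme B, was bright with 2593.2, 1914.8, 1915.7 and 2198.6 and ranked 196 of 12422. The other granzymes were near the floor: Gzma had 11.3, 14.7, 16.4 and 15.7, and Gzmc, Gzmd, Gzmf and Gzmg had means of 4.18, 6.92, 4.08 and 12.7. Prf1, the pore protein perforin through which granzymes enter their targets, had 3.8, 4.0, 6.7 and 15.4. Klrg1, an inhibitory lectin receptor of effector lymphocytes, was moderate with 156.9, 334.9, 311.4 and 288.3. Granzyme B signal was above that of every other measured gene of the list on each of the 4 arrays.

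The classes held across the series. Of the 1242 bright probe sets, 96.0%, 95.2% and 96.4% were also in the top 10% in PBS at 3, 6 and 12 h, and of the 4855 near the floor 96.3%, 97.0% and 95.4% were under 20.2 there. In none of the other 7 groups did a probe set pass between bright and near the floor, a count of 0 in either direction. Over single arrays, 3211 probe sets were under 20.2 on all 31. The groups share these cells and their scaling, so the agreement describes 1 series.

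Signals at 0.8 h were then tested against the mean of PBS at 3, 6 and 12 h, with limma on log2 signal and Benjamini-Hochberg adjustment over 7930 probe sets. At an adjusted p under 0.05, 1 probe set was called, 0.0126% of those tested, and 602 (7.59%) had an unadjusted p under 0.05. The one called was that of Ddit4, which encodes REDD1, a stress-induced inhibitor of the growth kinase mTORC1. Ddit4 had 287.6, 263.9, 287.0 and 308.2 at 0.8 h, against a lowest signal of 391.9, a mean of 521 ± 92.1 and a highest signal of 632.4 on the 12 later PBS arrays. The groups did not overlap. The log2 difference was -0.84 (SE 0.102, limma adjusted p = 8.77e-05).

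Of the 374 listed genes measured, 244 were tested in this contrast and 0 were called by limma, with 21 at an unadjusted p under 0.05. The median log2 difference was 0.03 for them and 0.02 for all genes tested. Myc, a driver of growth and the cell cycle, had 357.2, 359.5, 374.9 and 334.6 at 0.8 h and a mean of 228 ± 50.7 later, between 187.1 and 379.9, a log2 difference of 0.67 (SE 0.129) that missed the threshold (limma adjusted p = 0.056). For Cish, a feedback inhibitor that cytokines induce through STAT5, the values were 771.8, 761.1, 871.6 and 705.0 at 0.8 h and 545 ± 65.7 later, a log2 difference of 0.52 (SE 0.0994, limma adjusted p = 0.056). A p that misses the threshold does not show that levels were equal. The 4 markers were close to their later values: Cd3e had a log2 difference of -0.13 (SE 0.193), Cd4 -0.05 (SE 0.0761), Il4 0.01 (SE 0.0867) and Il13 0.03 (SE 0.113). Gata3, at 2290.2 ± 161 at 0.8 h, had 2096 ± 221 later, and Nmur1, at 201 ± 31.4 at 0.8 h, had 201 ± 48.9 later.

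**Figure D4:**
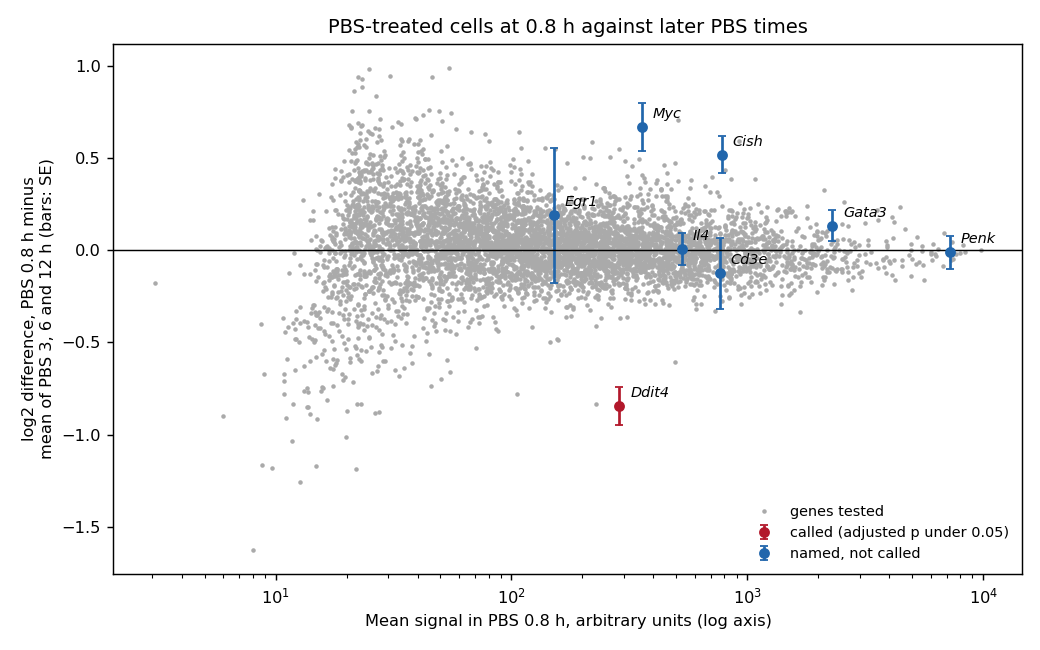
Log2 difference between PBS 0.8 h and the mean of PBS 3, 6 and 12 h for the genes tested, against mean signal at 0.8 h (log axis, arbitrary units), with standard errors as bars on the named genes. Ddit4, at -0.84, is the one gene called, and Cd3e, Il4, Gata3 and Penk lie close to 0.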

How the data were processed

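The study measured total RNA of D10.G4.1 cells on 31 one-colour arrays, and titles gave each array's group and number. The deposited values are probe set intensities on a linear scale, and 162 of them were 0. How the authors scanned the arrays, summarised probes and scaled the intensities is not given in the sources used here. In the deposited intensities the trimmed mean of an array (2% off either end) was between 150.09 and 150.11, so that all had been brought to a common average before deposit. They were not normalised further.

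Of 12488 probe sets, 66 array controls were left out. Of the other 12422, 10833 were paired with 1 gene symbol, 396 with several and 1193 with none, and only the first kind names a gene. Entrez numbers matched 10817 of them to RefSeq and changed 0 symbols. The brightest of a gene's probe sets stood for it, also where probe sets disagreed: 2073 genes had several, and 98 had both a bright and a near-floor one. The 20.2 limit is the 40th percentile of all values with the array controls. Without the controls it is 20.3, a choice tried after seeing the data.

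For the comparison with later PBS, intensities were raised to a floor of 5.8, the 20th percentile, and log2 values were modelled by limma 3.58.1 under R 4.3.3 (functions lmFit and eBayes, all 31 arrays, 1 mean for each of 8 groups, no block, 23 residual and 2.72 prior degrees of freedom). P-values were two-sided, with Benjamini-Hochberg adjustment over those 7930 probe sets whose mean log2 signal passed the 20.2 limit in at least 1 group. On simulated data for this comparison, with 7930 probe sets and no floor effects, recovery was 56% for probe sets given a log2 change of 0.5, 88% for 1 and 100% for 2 and 3, with 11 false calls among 183. There 50 probe sets were changed at each size, so the adjusted threshold was easier to pass than in the real data, with 1 call. These rates therefore do not carry over to the real data. In the real data 14 probe sets had a log2 difference of at least 1 in either direction, and none of them was called.

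The members and the 25 gene lists were chosen with earlier results of these data known, and no list was tested. Genes could be named if they were one of the 4 markers, among the 25 brightest genes, in a list, called against later PBS or next to a limit between classes. Others named were chosen after their values were seen, among them the ribosomal proteins near the floor, Cish and the genes in the closing observations. Alternatives were another scaling of the arrays, other limits, other ways to read a gene from its probe sets, other floors and filters, and a replicate block. Each PBS array was also left out in turn for the comparison with later PBS, and each of the 4 PBS 0.8 h arrays for the signals. No NmU array was left out by itself. Promoters were matched by symbol to a RefSeq table (GRCm38.p6), which held 6576 of the 8251 genes (79.7%).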

Additional observations from a re-analysis of the deposited data

Results flagged for a closer look

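Of 222 genes whose signals are named, 13 had 1 PBS 0.8 h array far from the other 3 by Dixon's test. Chance alone picks out about 1 in 20 groups of this size. No explanation was tested for any of them.

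Among the T cell genes, Cd3d had 1603.6 on replicate 3, above 1303.8 to 1327.1 on the other arrays, and Ptpn22 had 648.9 on replicate 4, above 554.2 to 567.3. Id2 had 2173.0 on replicate 3, above 2045.8 to 2066.7. Stat6 had 175.9 on replicate 1, below 199.4 to 203.9. Tph1 had 4510.0 on replicate 1, below 5064.6 to 5143.2. For Top2a, replicate 1 stood higher, at 470.0 against 349.3 to 360.2, and Rpl7 had 6854.3 on replicate 2, above 5866.9 to 5996.1. All of these kept their class on every array.

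The other 6 were at or near the floor. Il9r had 16.3 on replicate 3, above 6.7 to 7.3, and Pdcd1 had 6.5 on replicate 2, above 3.4 to 3.7. Cdh5 had 4.4 on replicate 2, above 1.8 to 2.2, and Cr2 had 0.7 there, below 3.3 to 3.6. Il13ra1 had 2.8 on replicate 1, below 8.0 to 8.4. Polr3d, just under the 20.2 limit by its mean, had 28.2 on replicate 1 and 16.9 to 18.0 on the others.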

How the results depend on the processing

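Near-floor classes held under most settings, with numbers that moved with the limit. Crossings by named genes were checked for the 20.2 limit only, and not for the limits of the bright and moderate classes. The bright class did not hold for every gene when probe sets were averaged. Il4, whose probe sets had means of 529, 153, 94.0 and 23.2, was then below the bright limit. So were Ptpn22, Myb, Foxp1 and Tap1, whose other probe sets had means of 5.5, 4.2, 201 and 18.7. The count of probe sets near the floor, 4855, lay between 3547 with the limit at the 30th percentile and 6155 at the 50th, and was 4017 where each of the 4 arrays had to be under it. That of listed genes near the floor, 142, lay between 102 and 186 under the same limits, and between 139 and 146 without 1 array. Of 222 named signals, scaling to a common median moved 16 by more than 1 SD, quantile normalisation 3, and the mean over a gene's probe sets 45. Reading the probe set brightest over all 31 arrays moved 0 of the 222. The median of the 4 arrays and leaving out 1 of them also moved 0. For a given probe set, however, neither can shift the value by 1 SD of the same 4 arrays. Those counts of 0 were thus fixed in advance and say nothing about stability. Rora (18.5 without replicate 3, 18.9 without replicate 4, 19.7 with a common median, 19.9 with quantile normalisation, 11.9 as the mean over probe sets), Bcl6 (18.4 without replicate 2), Cd2 (20.17 without replicate 2) and Cd6, Itga4 and Cd68 (14.1, 16.3 and 18.7 as means over probe sets) went under the 20.2 limit, and the 6 genes named beside that limit changed sides under at least 1 setting.

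In the comparison with later PBS, 1 probe set was called. The count was 2 with only the 16 PBS arrays, 3 with quantile normalisation and 6 with the floor at the 40th percentile. It was between 1 and 5 when 1 PBS array was left out. Leaving out PBS 3 h replicate 4 gave 5, PBS 12 h replicate 1 gave 3, and each of PBS 0.8 h, 3 h and 6 h replicate 1 gave 2. The cause was not tested. Ddit4 was called under all 22 alternatives, with a limma adjusted p between 2.09e-05 and 0.00505 and a log2 difference between -0.90 and -0.80. Myc was called under 3 of the 22 (limma adjusted p between 0.000276 and 0.367), and so was Cish (0.0157 to 0.421). Scaling to a common median moved the median log2 difference of all probe sets to -0.04, from 0.02 as deposited. With a replicate block the count was 1. Residuals of arrays with the same number correlated between -0.21 and 0.285 over 24 pairs, and those with different numbers between -0.248 and 0.355 over 72. Of 16 arrays, 6 correlated best with an array of their own number. These correlations do not settle whether arrays were paired, and the numbers were treated as names.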

Other observations

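Some genes outside the gene lists had bright signals, and they are given here as values of genes chosen after the signals were seen. Tph1, the first enzyme of serotonin synthesis outside the brain, had 4510.0, 5064.6, 5143.2 and 5078.6 and ranked 67 of 12422 probe sets, while its second probe set had a mean of 23.2. Csn2 and Csn1s1, which encode milk caseins, had means of 3889.5 ± 286 and 1786 ± 108 (SD, n = 4), with 3825.1, 4308.5, 3674.9 and 3749.5 for Csn2. Cyp11a1, the enzyme that makes the first steroid from cholesterol, had 1801.7, 2194.7, 2016.3 and 2214.8. Rhox5, a homeobox gene of the reproductive tract and placenta, had 3995.7, 4394.4, 4107.0 and 4243.1. Each of these 5 genes was above the bright limit on all 4 arrays, and the lowest signal on any array outside the group was 1563.2, for Cyp11a1.

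Several genes that interferons induce were bright, also chosen after the signals were seen and for being bright. Ifitm3, a membrane protein that blocks virus entry, had 3922 ± 375, and Isg15, a ubiquitin-like modifier, had 1573.0, 2591.9, 2299.8 and 2282.7. Usp18, which removes Isg15, had 1529 ± 257, and the interferon-inducible GTPases Gbp7, Gbp3, Igtp and Iigp1 had 2752 ± 413, 1732 ± 116, 1372 ± 301 and 1411 ± 335. Replicate 1 was the lowest of the 4 arrays for all 7 genes. Other genes that interferons induce were not bright: Irf1 was moderate at 492, Ciita dim at 23.7, and Cxcl10 and Cxcl9 near the floor at 16.5 and 3.32. Signal of Ifng itself was near the floor, and interferon receptor chains were dim.

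T cell receptor variable segments had probe sets on the array. Trav9d-3, an alpha chain segment, had 1818.3, 2318.7, 1995.4 and 2392.1 on its brightest probe set, and means of 1157 and 10.2 on the other 2. The beta chain segments Trbv13-2 and Trbv1 were dim, at 84.3 ± 7.84 and 145 ± 8.15. Segments are alike in sequence, so that a probe set can read more than 1 of them.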
